A study of Homo sapiens with 36 samples.

Results

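The genes for the proteins of the cytosolic ribosome were followed across 36 arrays of human osteosarcoma cells. A gene was taken where the array annotation gave a symbol beginning with RPL or RPS and a number, or RPLP0, RPLP1, RPLP2 or RPSA, leaving out the RPS6 kinases and pseudogenes. This gave 58 genes, 22 of the small and 36 of the large subunit, out of 11963 genes with a probe set that names 1 gene alone. Their 96 probe sets were reduced to the brightest for each gene. A further 57 probe sets name a ribosomal protein gene together with other genes, mostly small nucleolar RNAs of its introns, and 16 genes, RPL5, RPL10 and RPL23 among them, are named only there, so that they carry no value of their own below.

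A cytosolic ribosome holds 1 copy of most of these proteins beside its ribosomal RNAs, and growing cells spend a large share of their transcription and translation on making them. Most of their messenger RNAs begin with a terminal oligopyrimidine (TOP) tract, which allows their translation to be shut down together when nutrients or growth factors are withdrawn. A few genes have paralogs (RPL10L, RPL39L, RPL3L and others) whose products can take the place of the parent protein, in some cases mainly in testis or muscle.

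U2OS cells, an osteosarcoma line, carried E2F1 fused to a ligand-binding domain of the estrogen receptor (ER-HA-E2F1), introduced by retrovirus and selected, so that 4-hydroxytamoxifen (OHT) moves E2F1 into the nucleus. NFYB, a subunit of the CCAAT-binding factor NF-Y, was knocked down with 1 of 2 siRNAs, from Ambion and from Dharmacon, and control cells received 1 of 2 control siRNAs, from Dharmacon and from Sigma. All cells were deprived of serum for 24 h from 18 h after transfection and collected before OHT (0 h) or after 4 or 8 h at 80 nM. Each of the 12 combinations of siRNA and time had 3 biological replicates, and siRNAs with the same target were pooled, which gave 6 arrays per arm and time. Every array at 4 h and 8 h had OHT, so nuclear E2F1, OHT itself and further hours without serum cannot be told apart in these arrays. The authors cite earlier work in which OHT had minimal effect on the parental line, which is not among these samples.

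The values are MAS5 signals that the authors brought to 1 common trimmed mean, so each is a level relative to the rest of the RNA on that array. Whether there was less ribosomal protein messenger RNA in each cell, or more of other RNA, cannot be told apart in such bulk signals, and neither can fewer cells and less RNA per cell. Log2 signals were compared with limma, and a probe set was called at an adjusted p under 0.05 over all 22215 tested. NFYB itself was 2.83-fold, 4.09-fold and 5.41-fold lower with NFYB siRNA at 0, 4 and 8 h, and in control siRNA cells it was 1.79 higher on the log2 scale at 8 h than at 0 h. Of 6 osteosarcoma and mesenchymal markers 3 (VIM, SPARC and COL1A1, mean log2 signals of 13.96, 12.82 and 10.83) lay above the median of 6.79 over all probe sets and 3, ALPL and COL1A2 among them (6.56 and 4.13), below it. The 5 endothelial and 5 leukocyte markers lay between 1.35 and 5.70, and of 5 epithelial markers EPCAM alone (8.36) was above the median.

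The sequences around the start sites are shown because most members share a pyrimidine run at the annotated start base, which a few lack at that base. RefSeq (GRCh38.p14) promoters of 250 bases before and 50 bases from the start were at hand for 50 of the 58 genes. The 4 whose window did not place the start at that of the annotated gene were left out, which left 46 members and, by the same rule, 24242 promoters for comparison. A run of at least 6 pyrimidines that holds the start base was found in 35 of the 46, against 7.53% of all promoters. Its median length over the 46 was 11 bases and its greatest length 22, in RPL39. In the 30 bases below, which begin 12 bases before the start, capitals mark that run. The first 5 genes have it and the last 3, all with lower signals at 8 h of OHT, do not. A stretch that lies beside the start base is not counted, and RPL10A has one shortly after it.
RPL39, chrX:119791613-119791642, minus strand: ttccgccagCTTCCCTCCTCTTCCTTTCTC
RPL34, chr4:108620564-108620593, plus strand: ggCTTTTTTCTTCCTCTTCCggggacgttg
RPL29, chr3:51995878-51995907, minus strand: cgcagCCCCTTTCTCTTCCggttctaggcg
RPS9, chr19:54200846-54200875, plus strand: gcgcttccgcgCCTCTTTCTCagtgaccgg
RPS6, chr9:19380219-19380248, minus strand: cggaagttggCCCTCTTTTCCgtggcgcct
RPL10A, chr6:35468389-35468418, plus strand: gcaagacatgctagtctcttttccggttag
RPL10L, chr14:46651764-46651793, minus strand: gcgtagttaagagagcgcattttgacttcg
RPS27L, chr15:63157460-63157489, minus strand: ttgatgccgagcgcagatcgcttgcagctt

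The NF-Y box, CCAAT or ATTGG on the other strand, was in 16 of the 46 member promoters (34.8%), close to the 36.2% of all promoters. E2F matches (TTTCCCGC, TTTGGCGC or TTTCGCGC, both strands) were in 2 (RPL36 and RPS29), against 2.74% of all promoters. The ETS motif CTTCCG or its complement was in 32 (69.6%), against 19.9%, and in 4 of the genes with a start run it overlapped that run. The YY1 motif AAGATGGC was in 4 (RPL24, RPL35A, RPS3 and RPS28), against 3.1% of all promoters. The promoters of RPS9 and RPS15, the members with higher signals after NFYB knockdown that are in the promoter table, are given from 160 bases before the start, with these motifs in capitals. RPS9 has an NF-Y box and an ETS match, and RPS15 an ETS match only.
RPS9, chr19:54200698-54200877, plus strand: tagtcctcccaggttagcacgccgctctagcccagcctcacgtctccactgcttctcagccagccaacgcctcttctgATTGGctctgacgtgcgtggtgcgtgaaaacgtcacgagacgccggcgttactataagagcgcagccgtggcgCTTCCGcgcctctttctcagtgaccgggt
RPS15, chr19:1438236-1438415, plus strand: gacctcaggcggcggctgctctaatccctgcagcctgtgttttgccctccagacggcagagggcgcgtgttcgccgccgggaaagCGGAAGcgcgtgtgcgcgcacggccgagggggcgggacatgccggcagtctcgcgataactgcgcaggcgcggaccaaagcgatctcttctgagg

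On these arrays the members were among the brightest probe sets. Their median log2 signal was 13.92, and 51 of the 58 lay in the brightest 5% of all probe sets and 42 in the upper 1%. The highest signals belonged to RPL37A, a zinc-binding protein of the large subunit, RPS19, which is often mutated in Diamond-Blackfan anaemia, and RPL41, the smallest ribosomal protein. The 7 dimmer members were RPL26L1, RPL39L, RPL10L, RPL27A, RPLP2, RPS4Y1 and RPL3L. RPLP2 and RPL27A are dim here on the probe sets that name them alone. RPL3L, the muscle paralog of RPL3, had a mean log2 signal of 3.12, at the 16.4th percentile of all probe sets, and is not described further, nor is RPS4Y1.

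With 8 h of OHT in control siRNA cells most ribosomal protein genes were called lower, by small amounts. Of the 58 members 43 were called lower and 0 higher, where 29.6% of all probe sets were called lower and 20.3% higher. Among the brightest 5% of probe sets 47.3% were called lower, and 40 of the 51 members there. Of the members 54 had a negative change, and 4 (RPS25, RPLP2, RPL27A and RPS4Y1) a positive one that was not called. A negative change was found in 12202 of all 22215 probe sets and in 727 of the 1111 in the brightest 5%. The median change of the members was -0.26 on the log2 scale, beside -0.10 over all probe sets and -0.19 over the brightest 5%, and both subunits took part, with 15 of 22 small subunit and 28 of 36 large subunit genes called lower. The shared probe sets, which had no part in these counts, had 40 of 57 called lower with a median of -0.31. The count depended on how arrays were scaled and on their number. After leaving out all arrays numbered 1 or 2 it was 17 and 16. Of the scalings, 22 members were called lower after quantile normalization, with a median of -0.08, and 14 with each array centred on its median probe set, with a median of -0.17. How many of all probe sets these recomputed fits called was not counted.

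**Figure D1:**
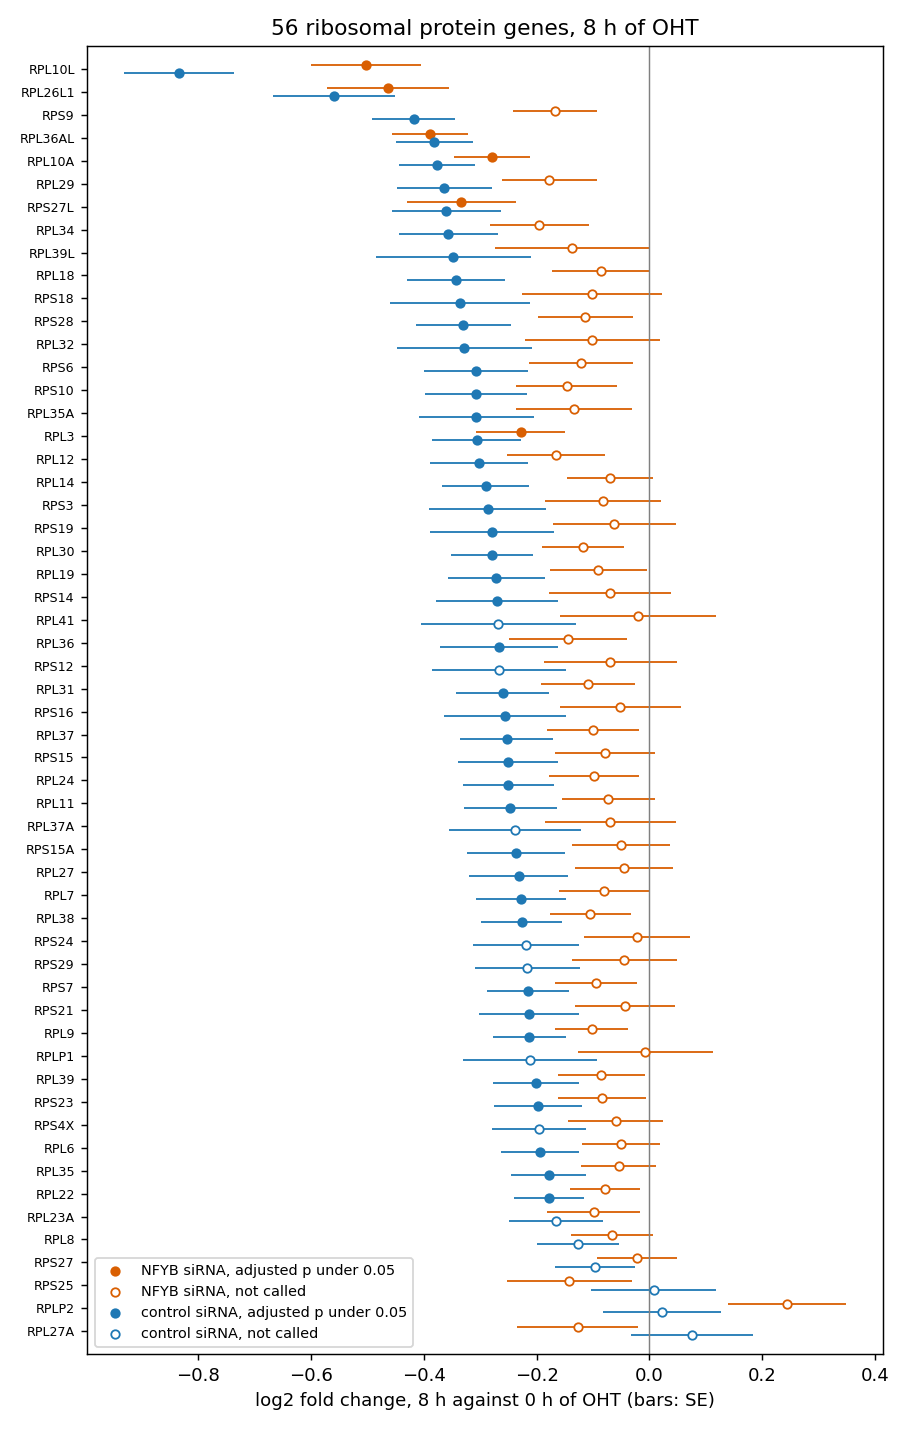
Log2 fold change of 56 ribosomal protein genes at 8 h against 0 h of OHT, in NFYB siRNA cells (orange) and control siRNA cells (blue), ordered by the change in control siRNA cells. Bars are standard errors, filled points were called at an adjusted p under 0.05, and most control siRNA points lie between -0.2 and -0.4 with RPL10L at -0.83.

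Among large subunit genes, RPL10A, the protein of the mobile L1 stalk, had lowest, median and highest signals of 7989, 9031 and 9480.0 at 0 h, 6873, 7596 and 8668 at 4 h and 6203, 6989 and 7336 at 8 h in control siRNA cells. Its change was -0.22 ± 0.07 at 4 h (log2 fold change ± SE, adjusted p = 0.00913, limma). At 8 h it was 1.3-fold lower (-0.38 ± 0.07, adjusted p = 1.10e-05). All 6 arrays at 8 h lay below all 6 at 0 h. RPL29, a small basic protein at the subunit surface, had signals of 10107, 10640.4 and 11944 at 8 h, against 12863, 14009 and 16095 at 0 h, and was 1.29-fold lower without overlap (adjusted p = 3.56e-04). RPL34 was 1.28-fold lower at 8 h (-0.36 ± 0.09, adjusted p = 7.20e-04) and RPL18 1.27-fold (-0.34 ± 0.09, adjusted p = 0.00103), likewise without overlap between 8 h and 0 h. RPL3, which reaches towards the peptidyl transferase centre, had signals of 9935, 11167 and 11826 at 8 h, against 12106, 13649 and 14994 at 0 h, and was 1.24-fold lower without overlap (adjusted p = 0.00122). RPL11, which with RPL5 can bind and inhibit MDM2, changed by -0.25 ± 0.08 (adjusted p = 0.0119), and its 8 h and 0 h arrays overlapped.

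In the small subunit the greatest fall was that of RPS9, a protein at the entry of the messenger RNA channel. Its signals in control siRNA cells were 9319.9, 10120.4 and 10951 at 0 h, 7353, 8052 and 9932 at 4 h and 6706, 7555 and 8549.7 at 8 h, with every 8 h array below every 0 h array. RPS9 changed by -0.26 ± 0.07 at 4 h (adjusted p = 0.00425). The change at 8 h was -0.42 ± 0.07 (adjusted p = 8.63e-06). A second, dimmer RPS9 probe set changed by -0.37 ± 0.26, which was not called. RPS6, the substrate of the S6 kinases, had signals of 15839, 16847 and 19521 at 8 h, against 19541, 21586 and 24308 at 0 h, a change of -0.31 ± 0.09 (adjusted p = 0.00481) without overlap. RPS14, whose loss of 1 copy underlies a form of myelodysplasia, changed by -0.27 ± 0.11 (adjusted p = 0.0366) and RPS19 by -0.28 ± 0.11 (adjusted p = 0.032), and in both the 8 h and 0 h arrays overlapped. For RPS14 the mean over its 3 probe sets, of which 2 are dim, moved by 0.01.

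The 15 members that were not called included the stalk protein RPLP1, which helps to recruit translation factors, with a change of -0.21 ± 0.12 (adjusted p = 0.147), and RPL41 (-0.27 ± 0.14, adjusted p = 0.108). These had changes near the median but wide errors. Others had smaller changes, among them RPS25, known for its part in internal initiation, at 0.01 ± 0.11, RPS27, a zinc-binding protein, at -0.10 ± 0.07, and RPL8 at -0.13 ± 0.07. For RPL37A the brightest probe set changed by -0.24 (not called), another by 0.39 and a dim one by -1.26, both called, so that its direction was not settled. Over the 23 members with several probe sets, all sets had the same sign in 16.

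In all, 14 members had 6 of 6 arrays at 8 h below every array at 0 h, and 19.6% of all probe sets did. They were RPL3, RPL9, RPL10A, RPL10L, RPL14, RPL18, RPL26L1, RPL29, RPL30, RPL34, RPS6, RPS9, RPS10 and RPS28.

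The 2 greatest falls were those of paralogs. RPL10L, a retrocopy of RPL10 known from testis, had signals of 711, 817 and 871 at 0 h, 438, 490.0 and 642 at 4 h and 401, 462 and 493 at 8 h in control siRNA cells. It was 1.6-fold lower at 4 h (-0.68 ± 0.10, adjusted p = 3.45e-07). At 8 h it was 1.78-fold lower (-0.83 ± 0.10, adjusted p = 2.67e-09). Neither time overlapped 0 h. Its sequence is close to that of RPL10, and the signal of the 2 genes may not be separable.

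RPL26L1, the paralog of RPL26, had signals of 1615, 1839 and 2187 at 0 h, 1047, 1305 and 1601 at 4 h and 1028, 1282 and 1506 at 8 h. RPL26L1 changed by -0.53 ± 0.11 at 4 h (adjusted p = 1.22e-04). By 8 h the change was -0.56 ± 0.11 (adjusted p = 3.37e-05). RPL10L and RPL26L1 were the 2 members with all 6 arrays at 4 h below all at 0 h, as had 12.5% of all probe sets, and neither overlapped 0 h at 8 h. RPL39L, the paralog of the exit tunnel protein RPL39, had 557, 750.4 and 839 at 0 h, 354, 493 and 698 at 4 h and 433, 592 and 683 at 8 h. It changed by -0.54 ± 0.14 at 4 h (adjusted p = 0.00151), and the change at 8 h was -0.35 ± 0.14 (adjusted p = 0.0335). The 0 h arrays of RPL39L overlapped those of both later times, and its parent RPL39 changed by -0.20 ± 0.08 at 8 h (adjusted p = 0.0271).

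RPS27L, a p53-inducible paralog of RPS27, changed by -0.36 ± 0.10 at 8 h (adjusted p = 0.00185), where RPS27 was not called. RPL36AL, which is close in sequence to RPL36A, changed by -0.38 ± 0.07 (adjusted p = 9.60e-06). Whether a paralog changed more than its parent was not tested as a difference between genes. Set against the median of the 51 bright members on each array, a comparison added after seeing the data, 7 members were still lower at 8 h: RPL10L (-0.60, adjusted p = 3.13e-05), RPL26L1 (-0.33), RPS9 (-0.19, adjusted p = 0.00604), RPL10A, RPL29, RPL34 and RPL18. On that scale 18.5% of all probe sets were called lower and 24.7% higher, and RPS27 was the only member called higher (0.13, adjusted p = 0.0456).

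At 4 h in control siRNA cells 8 members were called lower and 0 higher, against 23.3% and 16.1% of all probe sets. Beside RPL10A, RPL10L, RPL26L1, RPL39L and RPS9 these were RPL36AL (-0.26 ± 0.07, adjusted p = 0.00209), RPL14 (-0.20 ± 0.08, adjusted p = 0.038) and RPL30 (-0.19 ± 0.07, adjusted p = 0.0352), the last 2 being large subunit proteins. The median change of the members was -0.15 and that of all probe sets -0.11, and the members' median was -0.06 after quantile normalization. The count was 17 and 15 without Sigma control replicates 1 and 2 at 4 h, and 3 without all arrays numbered 3. Between 8 h and 4 h limma called 0 members (4 at an unadjusted p under 0.05, and 0 by the methods' unequal-variance test), where 7.13% of all probe sets were called higher and 10.1% lower, and the median of the members was -0.11, or -0.03 after quantile normalization.

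**Figure D2:**
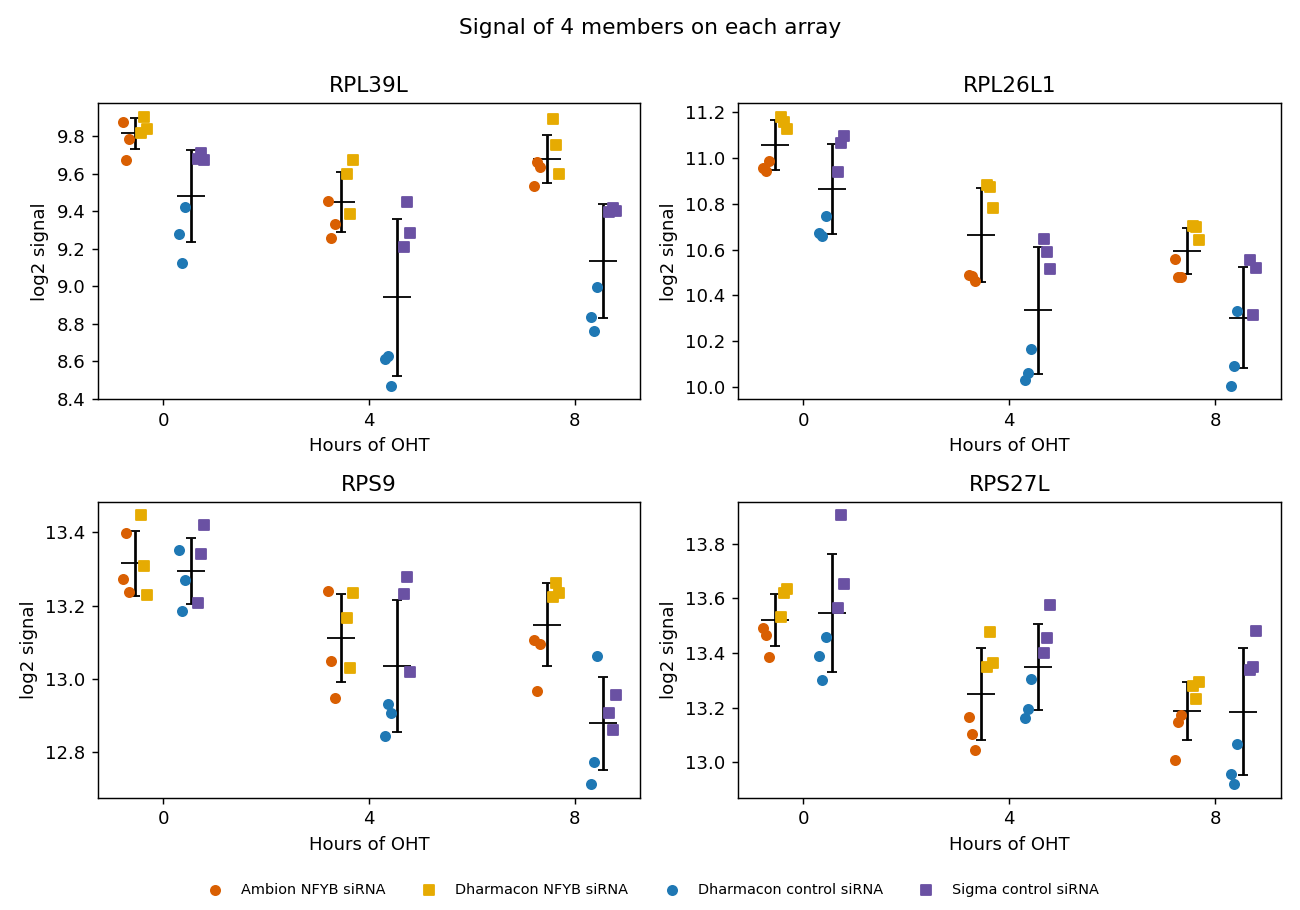
Log2 signal of RPL39L, RPL26L1, RPS9 and RPS27L on each of the 36 arrays against hours of OHT, with NFYB siRNA cells left of control siRNA cells at each time and 1 colour and marker for each siRNA. The horizontal mark and bar are the mean and SD of the 6 arrays of an arm, and in RPL39L the Dharmacon control arrays lie below the Sigma control arrays at every time.

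In NFYB siRNA cells the median change with OHT was smaller when both siRNAs were pooled, and the siRNAs were not alike in it. At 8 h against 0 h 6 members were called lower and 0 higher, where 29.4% of all probe sets were called lower and 18.5% higher, and the median change was -0.09, beside -0.15 over all probe sets. With arrays centred on the median probe set the members' median was 0.01. With the Ambion siRNA alone 18 members were called lower and with the Dharmacon NFYB siRNA alone 4. With both, 12 were called after quantile normalization and 13 with the level of the hybridization controls as a covariate, 1 of them higher in each. The share of all probe sets called in these recomputed fits was not counted. The median log2 signal of the 51 bright members averaged 13.85 ± 0.199 at 8 h and 14.08 ± 0.0796 at 0 h with the Ambion siRNA, and 14.12 ± 0.05 at 8 h and 14.08 ± 0.185 at 0 h with the Dharmacon NFYB siRNA (SD, n = 3 each). The 6 were RPL10A, RPL10L, RPL26L1, RPL3, RPL36AL and RPS27L, and 5 of them (all but RPL3) had every 8 h array below every 0 h array, as had 19.6% of all probe sets.

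RPL10L had signals of 722, 783 and 886 at 0 h and 472, 550.1 and 668 at 8 h, a change of -0.50 ± 0.10 (adjusted p = 3.77e-05). RPL36AL had 7011, 7239 and 7699 at 0 h and 5412, 5501 and 5979 at 8 h, with a change of -0.39 ± 0.07 (adjusted p = 7.50e-06) beside -0.38 ± 0.07 in control siRNA cells. For RPS9 the change was -0.17 ± 0.07 in NFYB siRNA cells, which was not called (adjusted p = 0.061), against -0.42 ± 0.07 in control siRNA cells.

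The difference between these responses was tested for each member, and 0 of 58 passed in limma (4 at an unadjusted p under 0.05). Of all probe sets 0.171% were called higher and 0.0315% lower. A positive difference was found in 53 members, with a median of 0.16, and in 10451 of all 22215 probe sets, with a median over all of -0.02. The members' median was 0.03 after quantile normalization and 0.09 with the hybridization controls as a covariate. For RPS9 the difference was 0.25 ± 0.10 (adjusted p = 0.599), for RPL10L 0.33 ± 0.14 (adjusted p = 0.597) and for RPL18 0.26 ± 0.12 (adjusted p = 0.684). The counts of 43 and 6 called members are therefore not shown to differ gene by gene.

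With NFYB knockdown at 0 h limma called 0 members (2 at an unadjusted p under 0.05, and 0 by the methods' unequal-variance test), where 1.58% of all probe sets were called higher and 2% lower, and the median difference was 0.01. At 4 h only RPL39L was called, as higher, where 1.48% of all probe sets were called higher and 1.45% lower. At 8 h 3 members were called higher and 0 lower, against 2.18% and 2.46% of all probe sets, and 9.81% higher among the brightest 5%. The median difference at 8 h was 0.17, beside -0.03 over all probe sets and 0.08 over the brightest 5%. All 51 bright members had a positive value, as had 771 of all 1111 probe sets in the brightest 5%. The bright members varied together from array to array, so their signs are not independent. By siRNA, the bright members' median at 8 h averaged 13.85 ± 0.199 with Ambion and 14.12 ± 0.05 with Dharmacon NFYB siRNA (SD, n = 3 each), against 13.84 ± 0.0948 in control siRNA cells (SD, n = 6). The median difference was 0.06 after quantile normalization, and with arrays centred on the median probe set 13 members were called. The call at 4 h was lost without any 1 of 5 Dharmacon arrays, and the count at 8 h was 0 without Dharmacon control replicate 1 or 2, 1 without any of the Dharmacon NFYB replicates and 8 without Ambion NFYB replicate 3.

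RPL39L had signals of 815, 909 and 958 with NFYB siRNA at 0 h, against 557, 750.4 and 839 with control siRNA. At 8 h it had 740.3, 803 and 949 with NFYB siRNA, against 433, 592 and 683 with control siRNA, and every NFYB siRNA array lay above every control siRNA array, as in 1.63% of all probe sets. The difference was 0.33 ± 0.14 at 0 h, which was not called (adjusted p = 0.203). It was 0.51 ± 0.14 at 4 h (adjusted p = 0.0322). At 8 h RPL39L was 1.46-fold higher with NFYB siRNA (0.54 ± 0.14, adjusted p = 0.0143).

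The call depended on the siRNAs taken. At 8 h RPL39L averaged 782 ± 37.1 with the Ambion and 862 ± 86.9 with the Dharmacon NFYB siRNA, against 467 ± 39.6 with the Dharmacon and 677 ± 5.25 with the Sigma control siRNA (SD, n = 3 each). With the Sigma control alone the difference at 4 h was 0.14 (adjusted p = 0.484), and at 8 h it was 0.27 (adjusted p = 0.0553), whereas with the Ambion NFYB siRNA alone it was 0.48 at 8 h (adjusted p = 0.215).

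RPS15, a small subunit protein needed for the export of that subunit, had signals of 10885, 13945 and 14577 with NFYB siRNA at 8 h, against 9544, 10429 and 12773 with control siRNA, with overlap. The difference was 0.30 ± 0.09 (adjusted p = 0.0435). RPS9 had 8001, 9191 and 9821 with NFYB siRNA at 8 h, against 6706, 7555 and 8549.7 with control siRNA, also with overlap, a difference of 0.27 ± 0.07 (adjusted p = 0.026). At 0 h the RPS9 difference was 0.02 ± 0.07 (adjusted p = 0.945). With siRNA as a random block neither RPS15 (adjusted p = 0.148) nor RPS9 (adjusted p = 0.0769) was called, and RPL39L was (adjusted p = 0.00748), whereas the methods' unequal-variance test called 0 members. The blocked fit takes 1 correlation within siRNAs, 0.16, for all probe sets. It therefore does not account for the spread between siRNAs in RPL39L itself. Neither RPS15 nor RPS9 was called with the Ambion NFYB siRNA alone, where RPS15 differed by 0.16 (adjusted p = 0.579) and RPS9 by 0.18 (adjusted p = 0.413), nor with the median of the bright members taken off each array (RPS15 0.15, adjusted p = 0.0763, RPS9 0.13, adjusted p = 0.207), a scale on which 0.482% of all probe sets were called higher.

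The siRNAs within an arm differed as well. They were compared in a separate limma fit with 12 groups of 3 arrays, siRNA by time. Its standard errors do not include the spread between siRNAs. Between the Dharmacon and Sigma control siRNAs 6, 10 and 7 members were called lower with Dharmacon at 0, 4 and 8 h, where 7.06%, 7.79% and 7.04% of all probe sets were called lower. RPL39L differed by -0.41 ± 0.09, -0.74 ± 0.09 and -0.54 ± 0.09 at these times (adjusted p = 4.89e-05 at 8 h). RPL36, a large subunit protein, differed by -0.31 ± 0.07, -0.41 ± 0.07 and -0.56 ± 0.07 (adjusted p = 1.98e-07 at 8 h), beside a change with 8 h of OHT of -0.27 ± 0.10. RPL26L1, RPL36AL and RPS27L were also lower with the Dharmacon control at all 3 times.

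Between the NFYB siRNAs 0 members were lower with Ambion at 0 h, 3 were lower with Ambion at 4 h (RPL10L, RPL26L1 and RPS27L) and 6 at 8 h (RPL7, RPL32, RPLP1, RPS3, RPS4X and RPS12), with 3.7%, 3.17% and 3.67% of all probe sets called lower at these times. At 8 h the median over all members was -0.25 with Ambion against Dharmacon. The knockdown count at 8 h was 0 of 58 with the Ambion siRNA alone and 17 with the Dharmacon NFYB siRNA alone. The share of all probe sets called in these fits was not counted, so whether this contrast is particular to the members was not tested.

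The members varied together from array to array. Across the 36 arrays the median correlation between pairs of the 51 bright members was 0.848, beside 0.0704 for the other 1042 probe sets of the brightest 5%, as a description of arrays that share a scaling. Each member was also set against the median of the other bright members, and 42 of 51 correlated with it above 0.8, RPL39 at 0.98 and RPS6 at 0.98. The lowest values were those of RPS25 at -0.13, RPS27L at 0.35, RPL36 at 0.43 and RPL22 at 0.50.

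The median log2 signal of the bright members had lowest, median and highest values in NFYB siRNA cells of 13.91, 14.07 and 14.28 at 0 h, 13.78, 14.04 and 14.14 at 4 h and 13.73, 14.09 and 14.17 at 8 h. In control siRNA cells they were 13.93, 14.08 and 14.24 at 0 h, 13.82, 13.87 and 14.13 at 4 h and 13.75, 13.81 and 13.98 at 8 h. The SD of this median within arm and time was 0.137, and the 8 h and 0 h arrays of control siRNA cells overlapped.

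A measure that is not from the cells moved with the members. The hybridization controls, transcripts added to every sample on its way to the array, had mean log2 signals of 11.5 to 11.9, and within arm and time they correlated with the members' median at r = 0.83 and rho = 0.82 over 36 arrays (permutation p = 2e-05 for each, the smallest that 100000 permutations can give here, adjusted p = 5e-05 over 5 measures). Without the 2 arrays farthest in the controls r was 0.80, and r was positive in each of the 6 groups of arm and time, between 0.46 and 0.96. The ratio of the 3′ to the 5′ probe set of GAPDH correlated likewise at r = 0.79 and that of ACTB at r = 0.52, that of the median of the other probe sets of the brightest 5% was r = 0.42 (adjusted p = 0.0125), and that of the median of all probe sets r = -0.06.

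The hybridization controls averaged 11.66 with NFYB siRNA at 8 h and at 0 h, and in control siRNA cells they averaged 11.61 at 8 h and 11.68 at 0 h. The log2 ratio of the 3′ to the 5′ probe set of ACTB averaged 1.89, 1.78 and 1.88 with NFYB siRNA at 0, 4 and 8 h, and 1.78, 1.64 and 1.53 in control siRNA cells. It was lowest in control siRNA cells at 8 h, as was the members' median. That of GAPDH averaged 0.16 with NFYB siRNA and 0.13 with control siRNA at 8 h, against 0.04 and 0.13 in these arms at 0 h. With the level of the hybridization controls as a covariate, added after seeing the data, 37 members were called lower at 8 h in control siRNA cells, with a median change of -0.18, and 5 were called higher with NFYB knockdown at 8 h, with a median of 0.11. The part of these ratios in the members' changes was not tested.

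The promoter features were set beside these changes. With 8 h of OHT in control siRNA cells 25 of 35 members with a start run of pyrimidines were called lower, with a median of -0.26, and 9 of 11 without it, with a median of -0.27. Some of the 11, RPL10A and RPS28 among them, have a pyrimidine stretch shortly after the start base, so this split depends on the annotated start. With NFYB knockdown at 8 h the 16 members with an NF-Y box had a median difference of 0.18 and the 30 without it 0.17, with 1 called higher in each. These are descriptions of the genes with a promoter in the table, which leaves out 12 members, RPL39L among them.

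Genes that build the ribosome had a larger median change than its proteins with 8 h of OHT in control siRNA cells. Most genes of its proteins lie in the brightest 5% of probe sets, and the part of signal level in this difference was not tested. Of 47 measured ribosome biogenesis genes 36 were called lower and 7 higher, with a median of -0.80, where 29.6% of all probe sets were called lower and 20.3% higher, with a median of -0.10. WDR3 of the small subunit processome changed by -2.03 (adjusted p = 4.05e-16) and the ribosomal RNA acetyltransferase NAT10 by -1.61, while UBTF, a factor of RNA polymerase I transcription, rose by 1.25 (adjusted p = 2.42e-14). The genes of the mitochondrial ribosome had 43 of 51 lower and 1 higher, with a median of -0.59, and those of the proteasome 26 of 34 lower and 3 higher, with a median of -0.40 (this list goes by symbol and holds PSMC3IP, which is not a subunit and was among those higher, by 1.19). Among 5 measured TOP messenger genes that are not members 2 were called lower, HNRNPA1 (-0.61) and FAU (-0.22). FAU encodes a ribosomal protein joined to a ubiquitin-like one, and lies outside the members only by its symbol. The initiation factors had 17 of 29 lower and 3 higher, with EIF3J at 1.13 and EIF2B4 at -1.10. Of 6 measured elongation and termination factors 4 were called lower and 1 higher. EEF2, the translocation factor, changed by -0.33 and EEF1A2 by 1.11 (adjusted p = 4.83e-13). Of 12 measured regulators of ribosomal protein output 7 were called lower and 4 higher. LARP1, which binds TOP messenger RNAs and holds back their translation, rose by 1.01 (adjusted p = 6.26e-16). The kinases RPS6KA1 and RPS6KA3 rose by 1.16 and 0.84, and MAX, the partner of MYC, changed by -0.89.

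With NFYB knockdown at 8 h fewer of these genes were called, where 2.18% of all probe sets were called higher and 2.46% lower, and 9.81% higher among the brightest 5%. Ribosome biogenesis had 4 of 47 higher and 0 lower, NHP2 (0.42, adjusted p = 0.00219) and FBL (0.33, adjusted p = 0.00264) of the small nucleolar ribonucleoproteins among them. The mitochondrial ribosome had 10 of 51 higher with a median of 0.18, the proteasome 6 of 34, and the initiation factors 1 higher (EIF3G, 0.39) and 1 lower (EIF4G2, -0.34).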

How the data were processed

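RNA of 36 samples was prepared by the authors with the RNeasy kit, amplified, labeled and hybridized to Affymetrix human genome arrays, and MAS5 signals were computed in Expression Console, whose version is not given in the sources used here. The deposited values are linear signal intensities scaled by the authors to a mean of 500 after trimming 2% at each end, which was checked on the file, and array medians ran from 100.5 to 119.7. Of 22277 probe sets 62 controls were left out and 22215 tested. The number of arrays limits the precision.

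The log2 of each signal entered a linear model (limma 3.58.1, R 4.3.3, lmFit and eBayes with a variance trend) with 6 groups of 6 arrays, 1 for each arm and time. Differences between siRNAs of an arm came from a separate fit with 12 groups of 3 arrays, siRNA by time. Tests were two-sided with Benjamini-Hochberg adjustment over all tested probe sets. The fit was tested on simulated data with independent noise. Those data hold no difference between siRNAs of an arm and no shift shared by the genes of an array, so the test does not cover these. The members, gene lists and naming rule were chosen with earlier results of these data known. Members named are the 10 with the greatest change among those called in each comparison, paralogs and their parents, the brightest and dimmest 3, and a fixed set including RPL11, RPS6, RPS14, RPS19 and the stalk proteins. RPL7, RPL8, RPL9, RPL22, RPL24, RPL27A, RPL32, RPL35A, RPL36, RPS3, RPS10, RPS12, RPS25, RPS28 and RPS29 were named after their values were seen. Listed other genes are up to 4 of each list by adjusted p.

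Counts were recomputed with quantile normalization, centring on the median probe set, an offset of 16, the upper 60% of probe sets, a fit without the variance trend, a fit of only the groups compared, 12 groups, siRNA as a random block, a replicate block, each siRNA alone, the unequal-variance test of the methods (log2 and linear signal, not for the difference of responses), each gene averaged over its probe sets, no cross-hybridizing probe sets, and arrays left out. After seeing the data, 3 were added: centring on the bright members, members in the brightest 5%, and the hybridization controls as a covariate.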

Additional observations from a re-analysis of the deposited data

Results flagged for a closer look

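Members named by rule, except RPS4Y1, and the members' median were each tested in the 6 groups of arm and time for a value far from the others. Of these 162 tests 6 found a value that stood apart, where chance gives about 1 in 20. The tests use the same arrays and the members vary together, so they are not independent. With NFYB siRNA at 4 h, replicate 2 of the Dharmacon NFYB siRNA was lowest in RPL3 (log2 signal 13.39, the next array 13.57), RPL41 (14.14, the next 14.59) and RPS19 (14.29, the next 14.62). RPLP1 was highest in replicate 1 of the Dharmacon control siRNA at 0 h (14.89, the next 14.58). RPLP2 was lowest in replicate 2 of the Ambion NFYB siRNA at 8 h (8.20, the next 8.39), and RPL3L, a dim probe set, in replicate 2 of the Sigma control siRNA at 0 h (1.86, the next 3.86).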

How the results depend on the processing

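Counts are of the 58 members, except where a setting drops probe sets. Among the recomputed fits, the share of all probe sets called was counted only with centring on the bright members. The other counts therefore cannot be set against such a share. The upper 60% of probe sets, the brightest 5% and the fit without cross-hybridizing probe sets hold fewer members. E2F1 4 h and E2F1 8 h are the OHT responses of control siRNA cells, which called 8 and 43 members, E2F1 8 h with NFYB siRNA called 6, 8 h against 4 h 0, and knockdown at 0, 4 and 8 h 0, 1 and 3. Of 330 recomputed counts and medians 250 stayed within 1.5 times the count or moved a median by less than 0.142, the SD between arrays. The 250 include each count that was 0 and stayed 0, as for the difference of responses. The SD is wide beside the medians: after quantile normalization the difference of responses had a median of 0.03 (0.16 otherwise) and knockdown at 8 h 0.06 (0.17), and centring on the median probe set turned that of E2F1 8 h with NFYB siRNA to 0.01 (-0.09). Quantile normalization called 22 at E2F1 8 h (median change -0.0801), 12 with NFYB siRNA, 1 at 8 h against 4 h and 5 for knockdown at 8 h. Centring on the median probe set called 14 at E2F1 8 h and 2 and 13 for knockdown at 4 and 8 h. Centring on the bright members, which takes their shared shift away by construction, called 3 at E2F1 4 h, 8 at E2F1 8 h and 0 for knockdown at 4 and 8 h, and turned RPL39 to 0.0286 and RPS27 to 0.13 at E2F1 8 h. The hybridization controls as a covariate gave 13 with NFYB siRNA and 3 and 5 for knockdown at 4 and 8 h. The upper 60% of probe sets gave 16 at E2F1 4 h, 10 with NFYB siRNA and 8 for knockdown at 8 h. As 12 groups the fit gave 20 at E2F1 4 h, 10 with NFYB siRNA, 4 at 8 h against 4 h and 4, 5 and 14 for knockdown at 0, 4 and 8 h. siRNA as a random block gave 15 at E2F1 4 h and 1 for knockdown at 8 h, and only the groups compared gave 0 and 1 for knockdown at 4 and 8 h. Knockdown at 4 h called 0 with no variance trend and 0 among members in the brightest 5%, which called 5 at E2F1 4 h. Averaging each gene over its probe sets gave 16 at E2F1 4 h, 12 with NFYB siRNA and 1 at 8 h against 4 h, and turned RPS14 to 0.015 at E2F1 8 h. Without cross-hybridizing probe sets 1 was called at 8 h against 4 h. The unequal-variance test of the methods, on log2 and on linear signal, gave 5 and 5 at E2F1 4 h and 0 for knockdown at 4 and 8 h, and it was not run for the difference of responses. The cause of these shifts was not tested.

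With the Ambion NFYB siRNA alone E2F1 8 h with NFYB siRNA called 18 and knockdown 0 and 0 at 4 and 8 h, and with the Dharmacon NFYB siRNA alone knockdown called 2 and 17. With the Dharmacon control alone E2F1 8 h called 28 and knockdown 5, 5 and 10 at 0, 4 and 8 h, and with the Sigma control alone E2F1 4 h called 4, E2F1 8 h 12 and knockdown 0 and 1 at 4 and 8 h. Leaving out arrays gave 3 to 17 at E2F1 4 h, 16 to 46 at E2F1 8 h, 4 to 8 with NFYB siRNA, 0 to 0 at 8 h against 4 h, 0 to 0 for the difference of responses, 0 to 0 for knockdown at 0 h, 0 to 2 at 4 h and 0 to 8 at 8 h. E2F1 8 h fell to 17 and 16 without all arrays numbered 1 or 2, and no single array moved it by over 1.5 times. E2F1 4 h gave 17 and 15 without Sigma control replicates 1 and 2 at 4 h and 3 without all arrays numbered 3. The knockdown call at 4 h, RPL39L, was lost without Dharmacon NFYB replicate 1 or 3 or any Dharmacon control replicate at 4 h, or without any replicate number, and 2 were called without Sigma control replicate 1. Knockdown at 8 h gave 1 without any Dharmacon NFYB replicate, 0 without Dharmacon control replicate 1 or 2 and 5 without replicate 3, 5 without Sigma control replicate 1, and 6 and 8 without Ambion replicates 2 and 3, with 0, 0 and 1 without all arrays numbered 1, 2 and 3. Replicate numbers showed little pairing over all arrays: deviations of arrays with the same number correlated at 0.01 on average, and those with other numbers at -0.007. Of 36 arrays 16 correlated best with their own number, out of 3 numbers. Pairing within a single siRNA was not tested. With the replicate number as a block E2F1 8 h called 45 and knockdown at 8 h 2. Of the values for named genes in the recomputed settings 7015 kept their call or lack of one, 200 lost the call and 140 gained it. A further 3 changed sign with a call in at least 1 of the 2 fits. Changes of sign without a call in either fit are held in the 7015 and were not counted apart.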
